A study of Mus musculus with 6 samples.

Results

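The epidermal growth factor (EGF) family and its ERBB receptors were followed in RM-1, a line of mouse prostate cancer cells, as the 10 genes Areg, Ereg, Hbegf, Tgfa, Btc, Epgn, Nrg1, Egfr, Erbb2 and Erbb3 among the 55487 genes of the deposited expression table. The 10 genes were taken by name. RNA was sequenced from RM-1 cells carrying a lentivirus that overexpresses Bhlhe22 (called Bhlhe22 cells, 3 libraries) and from RM-1 cells carrying a blank lentivirus (vector cells, 3 libraries), so both groups carry a lentivirus and the line is the same in both. The title of the series concerns Bhlhe22 and the immune surroundings of bone metastases, and the comparison here is between the cultured cells alone. The labels do not say whether the 3 libraries of a group came from separate cultures or from 1 transduced pool, so the p-values measure a spread between libraries that may be technical.

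EGF family ligands are made as membrane-bound precursors and released from the cell surface by metalloproteases. Amphiregulin, epiregulin, HB-EGF, TGF-alpha, betacellulin and epigen bind the EGF receptor, and epiregulin, HB-EGF and betacellulin also bind ERBB4. Neuregulin 1 binds ERBB3 and ERBB4. ERBB2 has no known ligand of its own and pairs with the other receptors, while ERBB3 has very weak kinase activity and signals through such pairs. In prostate epithelium these receptors feed the RAS, ERK and PI3 kinase pathways, and RM-1 itself came from mouse prostate cells transformed with Ras and Myc.

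The libraries held 15464709 to 25129552 counts in Bhlhe22 cells and 17950347 to 21223227 in vector cells. Bhlhe22 had 0 counts in each vector library and averaged 684 depth-scaled counts (CPM) in Bhlhe22 cells, so the labels held. Keratins Krt8 and Krt18 were abundant in both groups, at 545 and 665 CPM in Bhlhe22 cells and 757 and 665 CPM in vector cells, while Krt5 had no counts and the epithelial cadherin gene Cdh1 averaged 0.0836 CPM in Bhlhe22 cells and 0.181 CPM in vector cells. Over all 14663 tested genes, 10.4% were higher and 9.28% lower (edgeR adjusted p below 0.05). Of 8 epithelial markers 4 had enough counts to be tested, with 1 higher (Krt19), 1 lower (Krt8) and 2 not called. Of 5 mesenchymal markers, all tested, 0 were higher and 1 was lower, Vim, the vimentin gene. It had 1322 CPM in Bhlhe22 cells and 1658 CPM in vector cells (log2 fold change -0.33, edgeR adjusted p = 0.023). The other 4 were not called and went both ways. Fn1 (log2 fold change 0.39) and Col1a1 (0.28) were positive, and Cdh2 (-0.35) and Sparc (-0.16) negative. The list, with Vim its most abundant gene, summed to 2739 to 2895 CPM in Bhlhe22 libraries and 3073 to 3272 CPM in vector libraries. Whether these marker differences have a part in the results was not tested. The 6 leukocyte markers summed to 0.362 to 0.591 CPM in Bhlhe22 libraries and 0.187 to 0.34 CPM in vector libraries, with no counts for Cd3e, Lyz2 and Itgam. The 4 endothelial markers summed to 3.15 to 4.18 CPM in Bhlhe22 libraries and 3.74 to 4.86 CPM in vector libraries. Bhlhe22 replicate 1 stood apart within its group. Its deviation from each gene's mean fell with transcript length (Pearson r = -0.33 across 14637 genes, which are not independent replicates), against r = 0.14 and 0.20 in Bhlhe22 replicates 2 and 3 and -0.02 to 0.06 in the vector libraries. Several results below are given with and without it, though not every one.

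Of the 10 genes, 9 had enough counts to be tested, and 2 of these 9, Areg and Erbb3, were higher in Bhlhe22 cells, while 0 were lower (edgeR quasi-likelihood test across all genes, Benjamini-Hochberg adjusted p below 0.05). Over all 14663 genes tested, 19.6% were called, 10.4% higher and 9.28% lower, so a count of 2 in 9 is near the background and says nothing about the family as a group. At an unadjusted p below 0.05 edgeR gave 3 higher and 2 lower members, where 33.6% of all tested genes passed, 17.6% higher and 16.0% lower. DESeq2 and limma-voom gave the same counts of members, and after adjustment DESeq2 called 3 higher and 0 lower and limma-voom 2 higher and 0 lower. The median log2 fold change of the 9 members was 0.15, beside 0.01 over all tested genes, and 5 of the 9 estimates were positive. In 7 of the 9 the CPM values of the groups did not overlap, which was so for 40.8% of all tested genes.

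**Figure D1:**
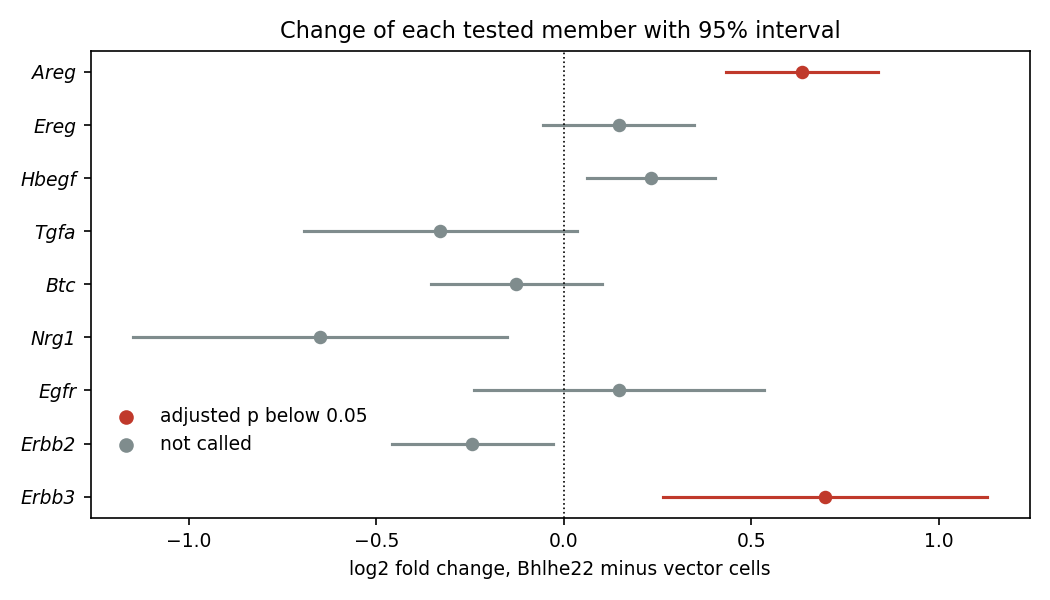
Log2 fold change of the 9 tested members, Bhlhe22 minus vector cells, from edgeR. Points are estimates and bars 95% intervals, with called members in red. The intervals of Areg (0.43 to 0.84), Hbegf, Nrg1, Erbb2 and Erbb3 do not cross 0, and of these Areg and Erbb3 passed the adjusted threshold.

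Ligands are described before receptors. Levels are given in FPKM (fragments per kilobase of transcript, scaled to sequencing depth), as the authors deposited them. Levels of different genes can be compared only per length. Areg, which encodes amphiregulin, was the most abundant of the 7 ligands in each of the 6 libraries. It had 84.0, 73.9 and 74.0 FPKM in Bhlhe22 replicates 1, 2 and 3, against 49.4, 48.4 and 53.7 FPKM in vector replicates 1, 2 and 3. Every Bhlhe22 library was above every vector library, with Bhlhe22 replicate 1 the highest. On the CPM scale that the test used, Areg averaged 94.8 ± 7.71 in Bhlhe22 cells and 61.0 ± 3.35 in vector cells (SD, n = 3 each), which was a 1.55-fold increase (log2 fold change 0.64, SE 0.09, 95% interval 0.43 to 0.84, edgeR adjusted p = 0.0031). The increase kept its call without each library in turn, with log2 fold changes of 0.56 to 0.68, and without Bhlhe22 replicate 1 it was 0.56 (edgeR adjusted p = 4.3e-04). In bulk RNA, more cells expressing a gene and more RNA per cell cannot be told apart.

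Areg (chromosome 5, 91139599 to 91148432 in GRCm38, plus strand) lies inside a cluster that also holds the ligand genes Epgn, Ereg and Btc. Its promoter is shown because it belongs to the ligand that rose, and those of Epgn and Btc because they belong to genes at the ends of the cluster, of which Btc was not called and Epgn was too low to test. The adjacent gene Ereg is named below without a window. The sequences are RefSeq promoter windows of GRCm38.p6, 5′ to 3′ on the gene's own strand, from 250 bases before to 50 bases after the annotated start. Capitals mark matches to the E-box letters CANNTG, the motif class bound by basic helix-loop-helix factors such as Bhlhe22, or to TGACGTCA, the cyclic AMP response element, searched on both strands.
Areg, chr5:91139349-91139648, plus strand: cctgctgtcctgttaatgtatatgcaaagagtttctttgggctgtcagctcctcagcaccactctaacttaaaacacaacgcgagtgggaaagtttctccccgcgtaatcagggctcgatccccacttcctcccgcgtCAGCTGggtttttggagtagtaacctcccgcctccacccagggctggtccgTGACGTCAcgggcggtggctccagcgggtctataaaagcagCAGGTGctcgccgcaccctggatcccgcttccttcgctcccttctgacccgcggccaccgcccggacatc
Epgn, chr5:91027267-91027566, plus strand: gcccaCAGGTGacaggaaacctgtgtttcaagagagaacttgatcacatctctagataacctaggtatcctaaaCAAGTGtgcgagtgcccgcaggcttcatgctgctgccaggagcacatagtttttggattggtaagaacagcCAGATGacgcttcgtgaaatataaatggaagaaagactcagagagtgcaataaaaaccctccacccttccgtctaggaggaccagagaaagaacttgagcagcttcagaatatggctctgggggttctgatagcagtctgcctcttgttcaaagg
Btc, chr5:91402945-91403244, minus strand: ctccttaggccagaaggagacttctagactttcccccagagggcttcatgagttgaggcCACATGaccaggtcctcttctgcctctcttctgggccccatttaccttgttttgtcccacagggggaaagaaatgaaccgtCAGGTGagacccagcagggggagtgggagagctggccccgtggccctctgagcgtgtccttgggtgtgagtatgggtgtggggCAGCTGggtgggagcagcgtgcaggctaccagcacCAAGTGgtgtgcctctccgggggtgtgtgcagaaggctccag
The Areg window held 2 E-box matches, CAGCTG starting at position -112 and CAGGTG at -20 (the first base before the start being -1), 1 TGACGTCA at -61 and a TATAAA at -31. None of these 3 kinds of motif overlapped another there. Epgn had 3 E-box matches and 1 TATAAA, and Btc had 4 E-box matches. CANNTG was present in 72.3% of all 32851 such windows of the genome, with a median of 1 match per window. TATAAA was present in 13.6%, TGANTCA, the AP-1 letters, in 7.81% and TGACGTCA in 1.79%. TGANTCA was not found in the windows of these 3 genes. Windows were given for 6 of the 10 members, and in those of Tgfa, Egfr and Erbb2 the number of E-box matches was 1, 0 and 1, with no match to the other motifs. A match is a run of letters and says nothing of binding in these cells.

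Ereg, the gene of epiregulin, lies next to Areg on the same strand (chromosome 5, 91074622 to 91093646). It had 11.5, 12.4 and 12.0 FPKM in Bhlhe22 replicates 1 to 3, against 11.5, 11.4 and 10.1 FPKM in vector replicates 1 to 3. The groups met at their edges, overlapping by a small margin in FPKM and not in CPM, and vector replicate 3 was the lowest. Its log2 fold change of 0.15 (SE 0.09, 95% interval -0.05 to 0.35) did not pass the test (edgeR adjusted p = 0.28). A share of 3.42% of its exon length lies opposite Gm19610, an antisense gene, and since no source used here says whether counting used strand, reads there cannot be told apart.

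Btc, which encodes betacellulin, is on the minus strand (chromosome 5, 91357261 to 91402994). It had 3.06, 3.43 and 3.63 FPKM in Bhlhe22 replicates 1 to 3, against 3.92, 3.83 and 3.47 FPKM in vector replicates 1 to 3. The groups overlapped, and its log2 fold change of -0.13 (95% interval -0.35 to 0.10) did not pass the test (edgeR adjusted p = 0.41). Epgn, the epigen gene at the other end of the cluster (chromosome 5, 91027464 to 91035215), had 0, 2 and 4 counts in Bhlhe22 libraries and 2, 0 and 0 in vector libraries, which is at or near the limit of 3 counts per library that a count of 0 allows (0.119 to 0.197 CPM, counting error only). It was too low to test, and no fold is given.

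**Figure D2:**
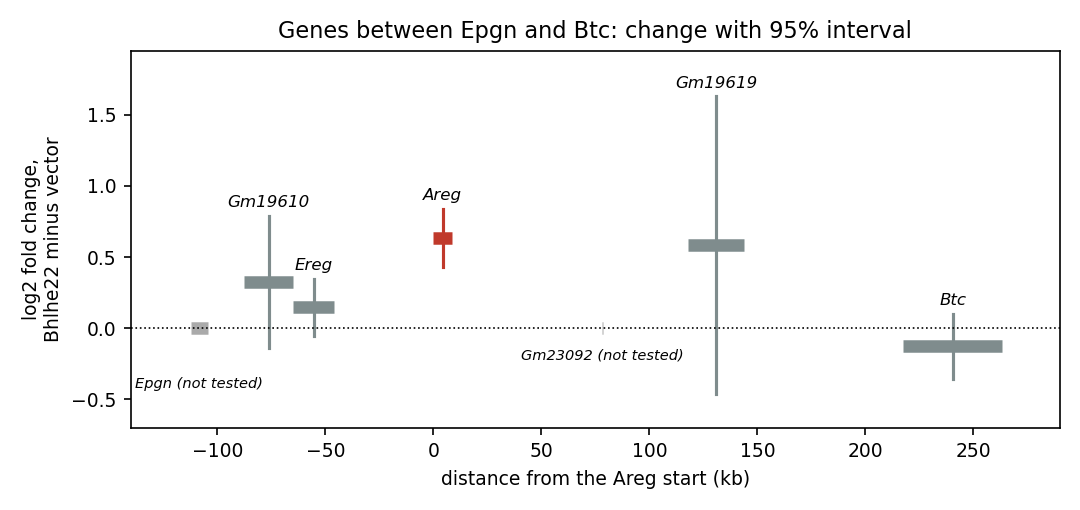
Log2 fold change, Bhlhe22 minus vector cells, of the 7 genes between Epgn and Btc against distance from the Areg start in kilobases. Thick bars span each gene and thin lines are 95% intervals, with Epgn and Gm23092 drawn at 0 because they were not tested. Areg (0.64, red) was the called gene. The intervals of Ereg and Btc lay below that of Areg, and those of Gm19610 and Gm19619 overlapped it.

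Of the 7 genes listed from Epgn to Btc, 5 were tested and Areg was the only one called. The antisense gene Gm19610 had a log2 fold change of 0.33 and the long noncoding RNA gene Gm19619 of 0.58, on 8 to 48 counts per library in Bhlhe22 cells and 15 to 21 in vector cells (edgeR adjusted p = 0.30 and 0.41). Gm19619 was called without Bhlhe22 replicate 1, with a log2 fold change of 0.92 (edgeR adjusted p = 0.040). The small nuclear RNA gene Gm23092 had no counts. The log2 ratio of Areg to Btc, in FPKM, was 4.78, 4.43 and 4.35 in Bhlhe22 replicates 1 to 3, against 3.66, 3.66 and 3.95 in vector replicates 1 to 3. The log2 ratio of Areg to Ereg averaged 2.69 ± 0.16 in Bhlhe22 cells and 2.20 ± 0.18 in vector cells (SD, n = 3 each). Both ratios were higher in 3 of 3 Bhlhe22 libraries than in any vector library, by 0.76 for Btc and 0.49 for Ereg, and the exact two-sided permutation test gave p = 0.1 for each, the smallest value 3 against 3 libraries allow (0.1 after adjustment over 3 ratios).

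Hbegf, the gene of heparin-binding EGF-like growth factor, had 12.6, 13.1 and 12.7 FPKM in Bhlhe22 replicates 1 to 3, against 10.6, 10.8 and 11.7 FPKM in vector replicates 1 to 3. The groups did not overlap, but the gap was small. Its log2 fold change of 0.23 (SE 0.07, 95% interval 0.06 to 0.40) missed the threshold (edgeR adjusted p = 0.063). DESeq2 called it at 0.23 (adjusted p = 0.048), and so did edgeR without Bhlhe22 replicate 1 (0.23, adjusted p = 0.027) and with GC and length trends removed (0.19, adjusted p = 0.041).

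Tgfa encodes TGF-alpha and lies on chromosome 6 from 86195223 to 86275719. It had 4.38, 6.68 and 6.50 FPKM in Bhlhe22 replicates 1 to 3, against 7.61, 7.54 and 7.27 FPKM in vector replicates 1 to 3. All Bhlhe22 libraries were below all vector libraries, and Bhlhe22 replicate 1 was far below the other two. Its log2 fold change was -0.33 (SE 0.15, 95% interval -0.69 to 0.03) and did not pass the test (edgeR adjusted p = 0.18). Without Bhlhe22 replicate 1 it was -0.17 (edgeR adjusted p = 0.066). With each library's trend on GC content and length removed, Tgfa had a log2 fold change of -0.33 (adjusted p = 0.084).

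Nrg1, the neuregulin 1 gene, was near the bottom of the scale. It had 23, 30 and 35 counts in Bhlhe22 replicates 1 to 3 and 49, 38 and 52 in vector replicates 1 to 3, or 0.0392, 0.0404 and 0.0367 FPKM in Bhlhe22 cells and 0.0719, 0.0489 and 0.0645 FPKM in vector cells. The groups did not overlap, with all Bhlhe22 libraries low. Its log2 fold change of -0.65 (SE 0.21, 95% interval -1.15 to -0.15) was the most negative of the 9, and did not pass the test (edgeR adjusted p = 0.074), nor in any of the 17 alternatives. The gene spans chromosome 8 from 31814551 to 32884797, and 4.66% of its exon length lies opposite another gene.

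**Figure D3:**
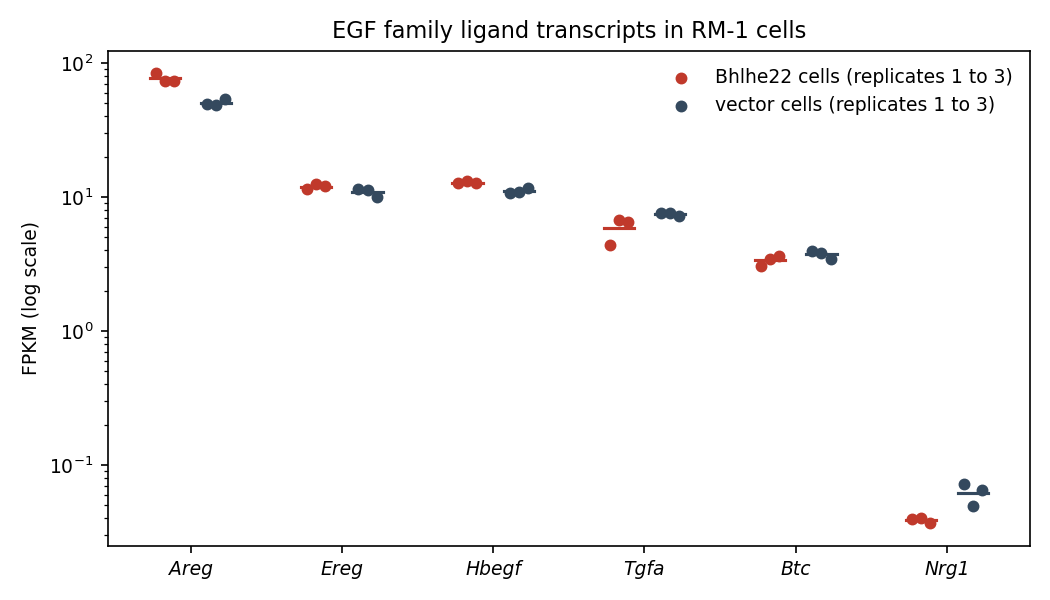
FPKM on a log scale of 6 ligand genes in each library, Bhlhe22 cells in red and vector cells in dark blue, with bars at the group means. Epgn, with 0 to 4 counts per library, is left out. Areg stands above the others in both groups, at 73.9 to 84.0 FPKM in Bhlhe22 cells and 48.4 to 53.7 FPKM in vector cells.

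By mean FPKM the order in Bhlhe22 cells was Areg (77.3 ± 5.79), Hbegf (12.8 ± 0.255), Ereg (12.0 ± 0.452), Tgfa (5.85 ± 1.28) and Btc (3.37 ± 0.289; SD, n = 3). In vector cells it was Areg (50.5 ± 2.79), Hbegf (11.1 ± 0.567), Ereg (11.0 ± 0.799), Tgfa (7.47 ± 0.179) and Btc (3.74 ± 0.239; SD, n = 3). Hbegf and Ereg were within their spread of each other in vector cells, and Nrg1 and Epgn, at the bottom, could not be ordered at this depth. Averaged over the 6 libraries Areg ranked 740 by FPKM among 26394 genes with any counts, and Hbegf 3806.

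Summed over the 7 ligands, FPKM came to 116, 110 and 109 in Bhlhe22 replicates 1 to 3, against 83.3, 82.0 and 86.2 in vector replicates 1 to 3. With Areg left out, the other 6 ligands summed to 31.6, 35.7 and 34.9 FPKM in Bhlhe22 replicates 1 to 3, against 33.8, 33.6 and 32.6 FPKM in vector replicates 1 to 3. The first sums did not overlap and the second did, so the higher ligand total was carried by Areg. Areg made up 69.3 ± 2.87% of the summed ligand FPKM in Bhlhe22 cells and 60.2 ± 1.75% in vector cells (SD, n = 3 each). Tgfa made up 3.79%, 6.10% and 5.97% of it in Bhlhe22 replicates 1 to 3, against 9.15%, 9.19% and 8.43% in vector replicates 1 to 3. These shares are descriptions with no test.

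Receptor transcripts were scarcer than those of Areg, Hbegf, Ereg and Tgfa in each library. Erbb2, the gene of the co-receptor, had 3.28, 3.92 and 3.80 FPKM in Bhlhe22 replicates 1 to 3, against 4.41, 4.40 and 4.41 FPKM in vector replicates 1 to 3. All Bhlhe22 libraries were lower, and the vector libraries were nearly identical to each other. Its log2 fold change of -0.24 (SE 0.09, 95% interval -0.46 to -0.03) did not pass the test (edgeR adjusted p = 0.11), and it was called once GC and length trends were removed (-0.22, adjusted p = 0.042). Without Bhlhe22 replicate 1 the log2 fold change was -0.18 and was not called (edgeR adjusted p = 0.099). Erbb2 lies on chromosome 11 from 98412470 to 98437716.

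Egfr, the gene of the EGF receptor that binds all ligands here except neuregulin 1, lies on chromosome 11 from 16752203 to 16918158. It had 1.86, 2.95 and 2.80 FPKM in Bhlhe22 replicates 1 to 3, against 2.41, 2.30 and 2.28 FPKM in vector replicates 1 to 3. Bhlhe22 replicate 1 was the lowest of all 6 and the other Bhlhe22 libraries were the highest, so the groups overlapped. With all libraries the log2 fold change was 0.15 (SE 0.16, 95% interval -0.24 to 0.53, edgeR adjusted p = 0.59). Without Bhlhe22 replicate 1 it was 0.31 and was called (edgeR adjusted p = 0.016), and without Bhlhe22 replicate 2 it was 0.03. With GC and length trends removed it was 0.18 (adjusted p = 0.15).

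Erbb3 encodes the neuregulin receptor that signals through its partners, and lies at 128567523 to 128589652 of chromosome 10 (minus strand). It had 55, 94 and 118 counts in Bhlhe22 replicates 1 to 3 and 51, 48 and 64 in vector replicates 1 to 3, or 0.591, 0.799 and 0.781 FPKM in Bhlhe22 cells and 0.472, 0.390 and 0.501 FPKM in vector cells. All Bhlhe22 libraries were above all vector libraries, with Bhlhe22 replicate 1 closest to them. In CPM Erbb3 averaged 4.39 ± 0.676 in Bhlhe22 cells and 2.72 ± 0.345 in vector cells (SD, n = 3 each), a 1.62-fold increase (log2 fold change 0.70, SE 0.18, 95% interval 0.26 to 1.13, edgeR adjusted p = 0.038). Without Bhlhe22 replicate 1 it kept its call (0.81, edgeR adjusted p = 0.010). The call was lost without Bhlhe22 replicate 2 (0.62, adjusted p = 0.12) or 3 (0.65, 0.10) and without vector replicate 1 (0.72, 0.11), 2 (0.60, 0.13) or 3 (0.77, 0.080), and with the replicate number as a block (0.69, adjusted p = 0.081).

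**Figure D4:**
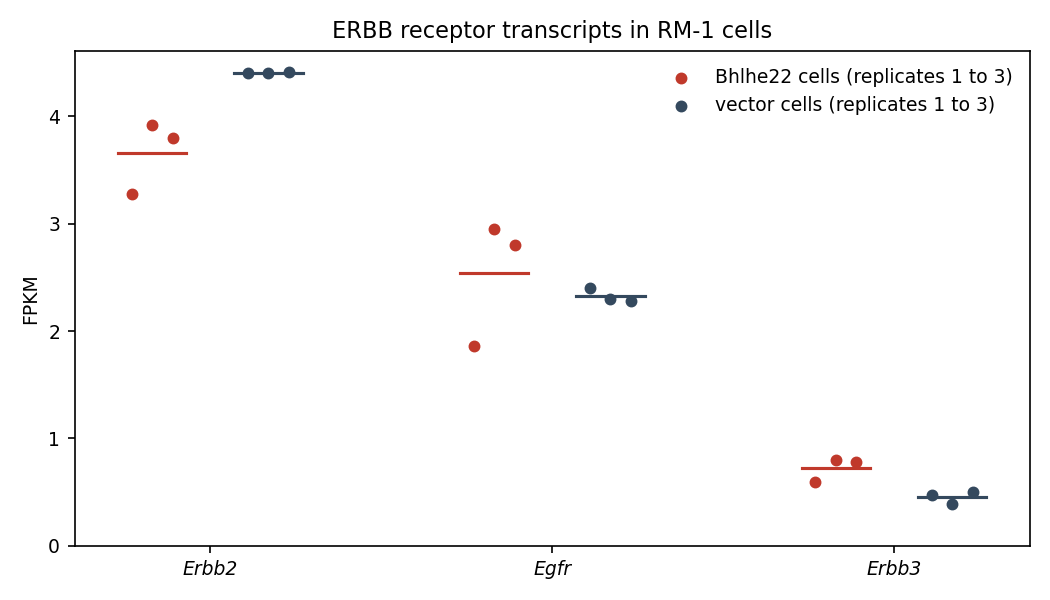
FPKM of the 3 receptor genes in each library, Bhlhe22 cells in red and vector cells in dark blue, with bars at the group means. Erbb2 is lower and Erbb3 higher in each Bhlhe22 library, while Egfr overlaps between the groups, with Bhlhe22 replicate 1 at 1.86 FPKM.

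The order of the receptors by mean FPKM was the same in both groups. Erbb2 had 3.66 ± 0.341 FPKM in Bhlhe22 cells and 4.41 ± 0.0032 in vector cells, Egfr 2.54 ± 0.586 in Bhlhe22 cells and 2.33 ± 0.0662 in vector cells, and Erbb3 0.724 ± 0.115 in Bhlhe22 cells and 0.455 ± 0.0576 in vector cells (SD, n = 3 each). The share of Erbb3 in the summed receptor FPKM was 10.3%, 10.4% and 10.6% in Bhlhe22 replicates 1 to 3, against 6.48%, 5.50% and 6.97% in vector replicates 1 to 3. The log2 ratio of Erbb2 to Egfr in FPKM was 0.81, 0.41 and 0.44 in Bhlhe22 replicates 1 to 3, against 0.87, 0.94 and 0.95 in vector replicates 1 to 3. That ratio was lower in 3 of 3 Bhlhe22 libraries than in any vector library (difference -0.37, exact two-sided permutation p = 0.1, the smallest possible, and 0.1 after adjustment).

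Erbb3 had the largest increase among the called members, and the tested genes whose log2 CPM followed it most closely over the 6 libraries were Cd274, the gene of PD-L1 (Pearson r = 0.995), Zfp282 (0.993) and Sgsm2 (0.993). The 6 libraries fall into 2 groups, so genes that differ between the groups in the same direction correlate, and 184 genes had r above 0.95. Cd274 had a log2 fold change of 0.75 (edgeR adjusted p = 0.010), and Zfp282 and Sgsm2 of 0.24 and 0.48 (edgeR adjusted p = 0.11 and 0.035).

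**Figure D5:**
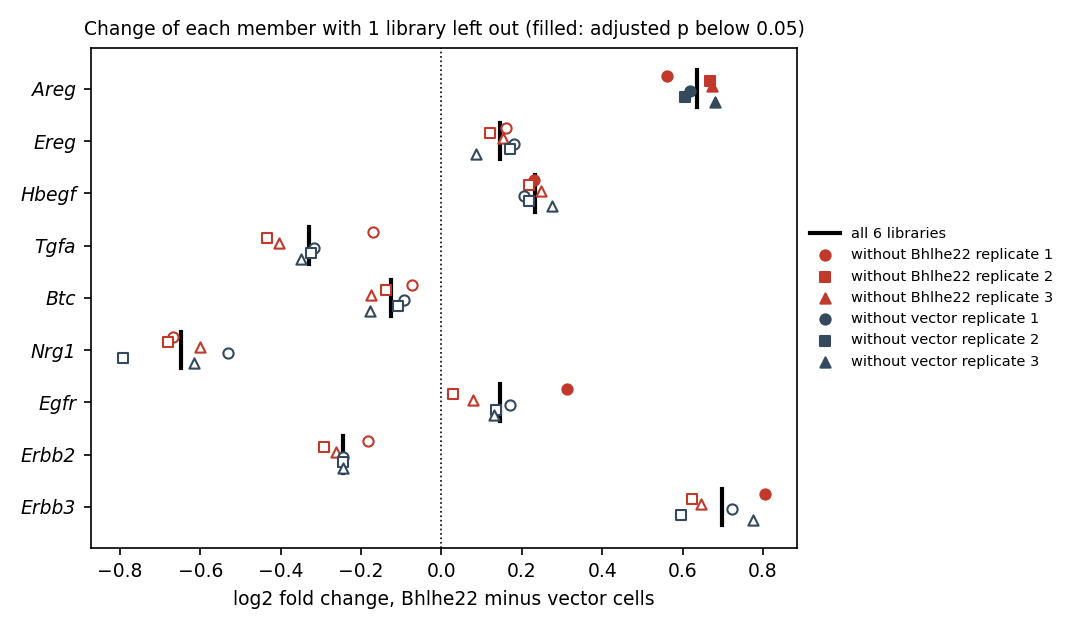
Log2 fold change of each tested member, Bhlhe22 minus vector cells, with all 6 libraries (black bars) and with 1 library left out (symbols, filled where the edgeR adjusted p is below 0.05). Areg is called in all 6 such fits and stays between 0.56 and 0.68, Erbb3, Hbegf and Egfr are each called in the fit without Bhlhe22 replicate 1 and in no other, and Egfr moves between 0.03 and 0.31.

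The remaining genes of the family were at or near the floor. Egf had 12, 12 and 23 counts in Bhlhe22 libraries and 7, 14 and 15 in vector libraries, and Nrg4 had 12, 14 and 19 in Bhlhe22 libraries and 15, 10 and 11 in vector libraries, with log2 fold changes of 0.39 and 0.32 (edgeR adjusted p = 0.46 and 0.52). Nrg2 had 0 counts in Bhlhe22 libraries and 1 count in vector replicate 3. Nrg3 and Erbb4, the remaining receptor gene, had 0 counts in all 6 libraries, which allows up to 0.119 to 0.197 CPM per library.

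The other genes of the pathway are given by list, and each list's counts stand beside 10.4% higher and 9.28% lower over all tested genes. With 0 to 3 calls in each direction among 8 to 25 tested genes, nothing is read from them about a list as a whole. Of 10 genes of ligand shedding 8 were tested, with 2 higher, 1 lower and 5 not called, and a median log2 fold change of -0.09. Rhbdf2, a rhomboid pseudoprotease that brings the sheddase ADAM17 to the surface, had 139 CPM in Bhlhe22 cells and 106 CPM in vector cells (log2 fold change 0.39, edgeR adjusted p = 0.022). The metalloprotease gene Adam8 had a log2 fold change of 0.32 (edgeR adjusted p = 0.042), and Frmd8, which stabilises the ADAM17 complex, of -0.27 (edgeR adjusted p = 0.036). Adam17 itself, with 135 CPM in Bhlhe22 cells and 138 CPM in vector cells, was not called (-0.03, 95% interval -0.20 to 0.14). The counts were 2 higher and 2 lower leaving out Bhlhe22 replicate 1, 1 and 0 leaving out Bhlhe22 replicate 3, and 0 and 0 leaving out any other library.

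Of 16 genes that inhibit the receptors or control their turnover 15 were tested, with 2 higher, 0 lower and 13 not called, and a median log2 fold change of 0.09. Eps15, an adaptor of receptor endocytosis, had 178 CPM in Bhlhe22 cells and 118 CPM in vector cells (edgeR adjusted p = 0.0027, log2 fold change 0.59, SE 0.08), and the recycling factor gene Rab11fip1 had a log2 fold change of 0.40 (edgeR adjusted p = 0.018). The feedback inhibitor Errfi1 was not called (0.09), nor was Lrig1 (-0.49, edgeR adjusted p = 0.13). The number of higher genes was 4 without Bhlhe22 replicate 1 and 1 without any other library, and 1 gene was lower without Bhlhe22 replicate 3.

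Of 25 genes from the adaptors to the kinases of the cascade, all were tested, and 2 were higher, 2 lower and 21 not called, with a median log2 fold change of 0.07. Map2k1, the gene of the ERK kinase MEK1, had 208 CPM in Bhlhe22 cells and 159 CPM in vector cells (edgeR adjusted p = 0.0059, log2 fold change 0.39, SE 0.06). The RAF family kinase gene Araf had a log2 fold change of 0.45, Hras of -0.35 and the PI3 kinase effector Akt1 of -0.35 (edgeR adjusted p = 0.040, 0.042 and 0.028). The counts were 7 higher and 2 lower leaving out Bhlhe22 replicate 1, 1 and 1 leaving out Bhlhe22 replicate 3, and 1 and 0 leaving out any other library.

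Of 16 target and feedback genes of ERK signalling, all tested, 3 were higher, 2 lower and 11 not called, with a median log2 fold change of 0.04. Spry4, a feedback inhibitor, had 102 CPM in Bhlhe22 cells and 64.7 CPM in vector cells (edgeR adjusted p = 0.0021, log2 fold change 0.66, SE 0.08). The transcription factor genes Fosl1 and Egr1 both had a log2 fold change of 0.42 (edgeR adjusted p = 0.0091 and 0.021), while Phlda1 had -0.36 (edgeR adjusted p = 0.0089) and Dusp6, an ERK phosphatase, -0.38 (edgeR adjusted p = 0.023; named because it completes the count). The counts were 3 higher and 3 lower leaving out Bhlhe22 replicate 1, 2 and 1 leaving out replicate 2, 2 and 2 leaving out replicate 3, 1 and 0 leaving out vector replicate 1, and 2 and 1 leaving out vector replicate 2 or 3.

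Among 20 other receptor tyrosine kinase genes 15 were tested, with 2 higher, 1 lower and 12 not called, and a median log2 fold change of -0.11. Pdgfrb (log2 fold change 0.53) and Ephb2 (0.58) were higher and Met, the receptor of hepatocyte growth factor, was lower (-0.46; edgeR adjusted p = 0.015, 0.028 and 0.036). The counts were 5 higher and 4 lower leaving out Bhlhe22 replicate 1, 0 and 1 leaving out replicate 2, 1 and 1 leaving out replicate 3, and 0 and 0 leaving out any vector library. Of the genes called in these lists, Eps15, Map2k1 and Spry4 passed in each of the 6 fits that left out 1 library.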

How the data were processed

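RNA-seq counts from 3 Bhlhe22 and 3 vector libraries of RM-1 cells were used, grouped by the sample titles. The table deposited by the authors gives a raw count for each gene, and FPKM values that the authors deposited beside them. The submitters' processing notes name CASAVA 1.8, HISAT2 2.1.0, StringTie 1.3.4b, edgeR and GRCm38, without roles; the sources used here do not give annotation release, filters or strandedness. Of 55487 identifiers 55141 were in GENCODE M21, and 9 of the 10 members had the same locus there. Strands and exon overlaps came from it.

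Counts were tested with edgeR 4.0.16 in R 4.3.3 (TMM scaling, filterByExpr with a minimum count of 10 and minimum total of 15, robust quasi-likelihood fit, adjustment over all 14663 tested genes), after the fit was tested on simulated data. SE and 95% intervals follow from its test statistic. CPM values use TMM-scaled library sizes. Replicates were distinct libraries (chi-square per degree of freedom 10.8 to 47.3). Levels and shares use FPKM. Floors are 3 counts per library. Alternatives used DESeq2 1.42.0 and limma 3.58.1, other scalings, filters, a replicate block, log2 FPKM with a pseudocount of 1, and 1 library left out. A correction for GC content and length was added after seeing the data.

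The members, lists and tests were chosen with earlier results of these data known. Named genes were the members, the remaining family genes, the genes from Epgn to Btc, up to 4 called genes per list by adjusted p, and the 3 genes most correlated with the called member of largest change in each direction; no member was called lower. Adam17, Errfi1, Lrig1 and Dusp6 were added after their values were seen. The 132 list symbols were all in the table. Figures used matplotlib 3.10.9.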

Additional observations from a re-analysis of the deposited data

How the results depend on the processing

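No member changed direction under any of the 17 alternatives. Areg was called in 17 of 17 (log2 fold change 0.56 to 0.68) and Erbb3 in 11 of 17 (0.24 to 0.81). The number of members called higher was 2 in the main fit and 1 with a replicate block. It was 3 with DESeq2 and with the GC and length correction, where Hbegf was called too. Without each library in turn it was between 1 and 4, 4 being without Bhlhe22 replicate 1, where Hbegf and Egfr were called too. The number called lower was 0, and 1 (Erbb2) with the GC and length correction; the cause was not tested. Ereg, Tgfa, Btc and Nrg1 were called in none of the 17. The smallest changes of Nrg1, -0.03, and Erbb3, 0.24, came from limma on log2(FPKM + 1), where the pseudocount exceeds their levels. The other alternatives gave Erbb3 a log2 fold change of 0.60 to 0.81. Replicate numbers gave no pairing: deviations of same-numbered libraries correlated at 0.03, 0.02 and 0.02, not every library correlated best with its own number, and with the replicate block 1086 genes were higher and 993 lower in place of 1520 and 1361. Leaving out 1 library gave 715 to 2345 higher and 633 to 2337 lower genes, the largest counts without Bhlhe22 replicate 1. Over the alternatives other than left-out libraries, called list genes numbered 1 to 2 higher and 0 to 1 lower for shedding, 2 to 5 higher and none lower for receptor turnover, 1 to 6 higher and 0 to 3 lower for the cascade, 3 higher and 2 lower throughout for ERK targets, and 1 to 4 higher and 1 to 3 lower for other receptor kinases. Depth limits Epgn, Nrg1, Egf, Nrg2 and Nrg4, with at most 52 counts in a library.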
